A study of Mus musculus with 8 samples.

Results

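The genes described here are 7 genes of the cornified envelope, the protein shell of squamous epithelial cells: Sprr1a, Sprr1b, Sprr2a1, Sprr2a2, Sprr2a3 and Sprr2h, which encode small proline-rich proteins, and Cdsn, which encodes corneodesmosin. They were taken by symbol from the 39179 genes of the deposited count table in all, and the set was put together with the difference between SHH antibody and no antibody already known. That difference is therefore given for the 7 genes as a description, with no test. The RNA is that of epithelial cancer cells of the mouse pancreas from a mixed FVB/B6 background, whose labelled genotype includes p48Cre, ROSA_rtTAL+ and p53L+. These labels name a Cre driven from p48, a factor of pancreatic progenitor cells, the doxycycline-dependent activator rtTA and a p53 allele; no doxycycline treatment and no number of independent cell lines is given in the sources used here. In both arms the cancer cells, marked with GFP, shared a culture with RFP-marked pancreatic stellate cells in 0.5% dialyzed serum for 72 h and were then sorted by colour. One arm (SHH antibody, 4 libraries) was given, at 20 µg/mL, an antibody against the secreted ligand sonic hedgehog that blocks its action, and the other (no antibody, 4 libraries) received none; the labels name no control antibody.

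Small proline-rich (SPRR) proteins are short precursors rich in proline, glutamine and lysine. Transglutaminases cross-link them to one another and to involucrin and loricrin on the inner face of the cell membrane, which makes the envelope tough. Their genes lie side by side in the epidermal differentiation complex of chromosome 3, and outside the skin they are known to be switched on in stressed or injured simple epithelia, such as those of bile ducts and the gut. Corneodesmosin is a secreted glycoprotein that holds cornified cells together at modified desmosomes, and its gene lies in the major histocompatibility region of chromosome 17.

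The promoter windows of 3 genes are shown, since those of the Sprr2 genes that moved apart in these data differ in their letters. Whether this has to do with the changes was not tested, and the windows do not all adjoin the counted genes. Each window runs from 250 bases before to 50 bases after the annotated start, 5′ to 3′ on the strand of the gene, and comes from RefSeq (GRCm38.p6, the assembly of the deposited coordinates). Capitals mark the AP-1 motif TGANTCA and the octamer motif ATTTGCAT, both searched on both strands, and no 2 of the marked matches overlap. Sprr2h lies on the + strand at chr3:92385435-92385734, Sprr2a1 on the + strand at chr3:92215585-92215884 and Sprr1a on the - strand at chr3:92485832-92486131.
Sprr2h: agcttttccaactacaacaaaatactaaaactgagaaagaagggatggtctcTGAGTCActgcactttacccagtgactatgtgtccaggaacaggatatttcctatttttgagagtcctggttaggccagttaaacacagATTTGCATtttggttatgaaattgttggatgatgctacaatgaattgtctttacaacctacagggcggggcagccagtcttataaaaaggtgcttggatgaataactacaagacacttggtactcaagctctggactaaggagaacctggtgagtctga
Sprr2a1: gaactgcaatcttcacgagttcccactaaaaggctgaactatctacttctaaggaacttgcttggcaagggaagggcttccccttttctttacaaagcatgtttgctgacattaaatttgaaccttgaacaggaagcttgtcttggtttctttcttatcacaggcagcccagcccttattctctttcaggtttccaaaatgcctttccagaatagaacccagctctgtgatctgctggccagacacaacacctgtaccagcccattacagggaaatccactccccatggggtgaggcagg
Sprr1a: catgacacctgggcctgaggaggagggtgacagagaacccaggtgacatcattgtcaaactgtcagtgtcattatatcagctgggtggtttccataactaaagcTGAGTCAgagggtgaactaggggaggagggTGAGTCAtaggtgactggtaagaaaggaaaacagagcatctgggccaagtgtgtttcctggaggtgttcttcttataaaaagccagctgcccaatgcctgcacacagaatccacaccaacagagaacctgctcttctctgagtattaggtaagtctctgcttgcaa

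The Sprr2h window held 1 AP-1 match, 198 bases before the start, and 1 octamer match, 109 bases before it. The Sprr1a window held 2 AP-1 matches, at -146 and -116, and no octamer. The Sprr2a1 window held neither motif; the Sprr2a2 window was identical to it base for base, and the Sprr2a3 window shared a run of 272 bases with it and also held neither. Of the 10 Sprr2 promoters in the RefSeq table, the 7 that are not Sprr2a genes each held both motifs, with the octamer between -112 and -108. Those 7 also each held the TATA box letters TATAAA at -29, and no Sprr2a window held these letters. The windows of Sprr1b, Sprr3 and Sprr1a held them at -30, -33 and -43. The Sprr1b window held 1 AP-1 match at -111, and the Cdsn windows, of which there are 2, held neither motif. Of 32851 mouse promoter windows of the same length, 7.81% held an AP-1 match, 1.74% an octamer match and 13.6% the letters TATAAA on either strand. A match describes letters and not a bound site, and the absence of one says only that these letters are not in this window. For Sprr2a3 the RefSeq start lies at -3262 bases from the start of the gene in the deposited table, so that its window does not adjoin the counted exon. The windows of Sprr2a1, Sprr2h and Sprr1b adjoin the start in the table exactly, and that of Sprr1a to within 14 bases. The RefSeq start of Sprr2a2 lies 34727 bases after its start in the table, and of the 2 Cdsn windows 1 adjoins the start in the table and the other has its start at -9027 bases from it.

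The 3 Sprr2a genes share sequence, most of all Sprr2a1 and Sprr2a2, whose reads cannot be told apart for most of their length. Of the 101-base stretches (the length of a read) in the GENCODE M21 transcripts of Sprr2a1, 92.4% also occurred in a transcript of another gene, and of those of Sprr2a2 92.7%. In the table, Sprr2a1 (chr3:92215835-92222485) lies almost wholly inside Sprr2a2 (chr3:92215920-92257298) on the same strand, with 6566 bases in common. Sprr2a3 (chr3:92288566-92289247) was counted over 682 bases, the length of transcript Sprr2a3-201, and 16.3% of the 101-base stretches of that transcript also occurred in another gene. Sprr2h (chr3:92385685-92387324), Sprr1a, Sprr1b and Cdsn shared no such stretch with any other gene. These shares count exact matches only, and M21 may not be the annotation used for the counting. No gene of the table overlaps Sprr2h, Sprr1a, Sprr1b or Cdsn on either strand.

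The libraries held 14953255 to 15733280 counts with SHH antibody and 10009711 to 14602784 with no antibody, so that each antibody library was the deeper. Replicate 1 with no antibody stood apart from its arm, where the chi-square of its counts per degree of freedom was 9.26 to 11.2 against the other 3 libraries. The other pairs of that arm gave 1.79 to 4.61 and those of the antibody arm 1.72 to 3.70. Nothing in the labels beyond the words "biological n" says how the cultures were kept separate, so the spread between libraries may be technical in part. Duct epithelial markers (Krt7, Krt8, Krt18, Krt19 and 5 others) took 0.735% to 0.785% of counts with SHH antibody and 0.673% to 0.782% with no antibody. The 14 stellate cell markers took 0.00366% to 0.00651% and 0.00348% to 0.00566%, with Dcn and Lum at 0 in every library. The 6 stellate markers that could be tested had a median log2 fold change of 0.42, and the arms overlapped in each of them. Of the 9 duct epithelial markers 2 were called as higher with SHH antibody, against 4.53% of all genes tested. Nothing is read from so small a count. Of the 10 keratinocyte markers, Krt5, Krt1, Dsg1a and Flg were at 0 in every library. Krt14 had at most 4 counts and Trp63, the master regulator of squamous epithelium, at most 2. The keratinocyte list took 0.0201% to 0.0224% of counts with SHH antibody and 0.0164% to 0.021% with no antibody, nearly all of it from Ivl. Leukocyte, endothelial and acinar lists took at most 0.00144% in any library. The part of other cell types in the results below was not tested beyond these values. In such libraries fewer cells of a type and less RNA per cell cannot be told apart.

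Sprr1a was by far the most abundant member. Levels are given as CPM (counts scaled to a common library size with TMM factors), and RPKM, the authors' values per kilobase of gene length and per library total, is used to compare genes. By mean RPKM over the 8 libraries Sprr1a ranked 12 among 16455 protein-coding genes with a count. Its RPKM averaged 1301 ± 65.5 with SHH antibody and 1414 ± 143 with no antibody (SD, n = 4 each, as in all means below). Sprr1a alone took 0.0978% to 0.11% of all counts with SHH antibody and 0.0971% to 0.122% with no antibody. Every other member stood far lower. Sprr2a3 followed with SHH antibody, at 8.99 ± 1.04 RPKM, and Sprr2h stood just under it at 7.24 ± 0.741 RPKM, with values of 7.90 to 10.3 and 6.31 to 7.94 that overlap. With no antibody the order was the other way, Sprr2h at 22.9 ± 5.34 RPKM and Sprr2a3 at 3.47 ± 1.01 RPKM, with no overlap.

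The 4 lowest members stood near or under 1 RPKM. With SHH antibody Sprr1b averaged 0.732 ± 0.331, Sprr2a1 0.566 ± 0.141, Cdsn 0.453 ± 0.105 and Sprr2a2 0.178 ± 0.0176 RPKM. The first 3 of these overlap in their libraries, while each library of Sprr2a2 was under each library of the other 3. With no antibody Cdsn averaged 1.10 ± 0.0831, Sprr1b 0.753 ± 0.399, Sprr2a1 0.218 ± 0.098 and Sprr2a2 0.0365 ± 0.0293 RPKM. In that order each gene overlapped the next in its libraries, except that every library of Sprr2a1 was above every library of Sprr2a2. The lengths behind these values differ, 3541 bases for Sprr2a1 and 3584 for Sprr2a2 against 682 for Sprr2a3, so a level per length depends on the gene model for these copies.

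With SHH antibody the 3 Sprr2a genes were higher and Sprr2h and Cdsn lower, while Sprr1a and Sprr1b overlapped between the arms. The fit of all 13626 genes took 6 of the 7 members; Sprr2a2 fell under its filter on low counts. Of these 6, 2 were past the threshold as higher (Sprr2a1, Sprr2a3) and 2 as lower (Sprr2h, Cdsn), where the same rule called 8.40% of all genes, 4.53% as higher and 3.87% as lower. Since the members were chosen on this contrast, nothing is read from that count. Of the 7 members the arms did not overlap in 3 with higher values and 2 with lower, against 7.71% and 6.56% of all genes tested (14.3% in both directions). Among the 6 in the fit, the log2 fold change was above 0 in 3, against 48.5% of all genes tested, and nothing is read from these shares either. The median log2 fold change of all genes tested was -0.004.

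**Figure D1:**
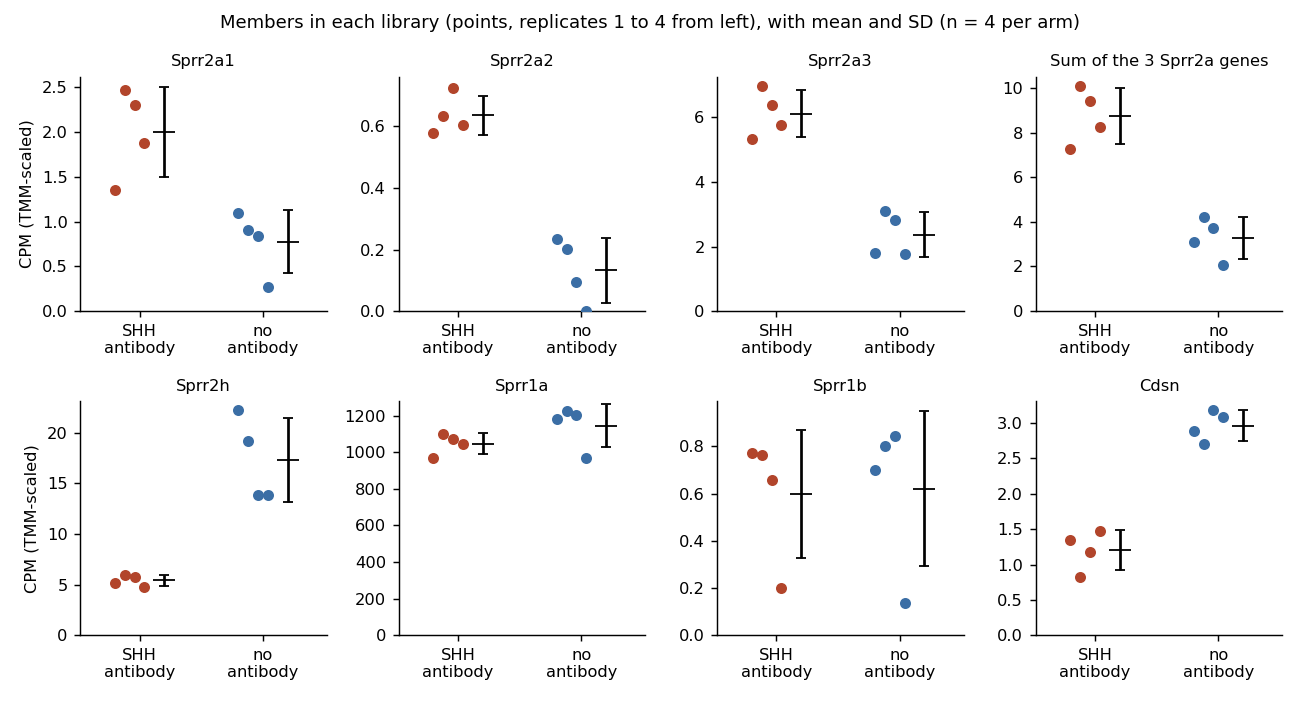
CPM of each member, and of the summed Sprr2a genes, in each library (points, replicates 1 to 4 from left), with the mean and SD of 4 libraries beside them; every axis starts at 0. The antibody libraries of the Sprr2a genes lie above all libraries with no antibody, those of Sprr2h and Cdsn below, and those of Sprr1a and Sprr1b overlap.

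Sprr2a3 held most of the counts of the Sprr2a genes. Its counted transcript shares fewer 101-base stretches with other genes (16.3%) than Sprr2a1 (92.4%) or Sprr2a2 (92.7%). Its share of the counts may therefore depend on how shared reads were counted, which is not given. Sprr2a3 had 5.34, 6.99, 6.38 and 5.77 CPM with SHH antibody (replicates 1 to 4), against 1.79, 3.10, 2.81 and 1.78 CPM with no antibody. The lowest antibody library stood well above the highest of the others. The means were 6.12 ± 0.719 and 2.37 ± 0.687 CPM, a fitted 2.65-fold (log2 fold change 1.41 ± 0.18 SE). Without replicates 1 and 4 of the arm with no antibody, which hold its 2 lowest values, the log2 fold change was 1.05 ± 0.20 SE.

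Sprr2a1 had 1.35, 2.48, 2.30 and 1.88 CPM with SHH antibody, against 1.09, 0.901, 0.843 and 0.274 CPM with no antibody. These rest on 21, 39, 35 and 28 counts and on 14, 9, 9 and 4 counts, and replicate 1 of each arm comes closest to the other arm. The log2 fold change was 1.40 ± 0.32 SE, or 2.65-fold. Sprr2a1 reached the CPM that the filter asks for in all 4 antibody libraries and in 3 of the others. Sprr2a2 had 9, 10, 11 and 9 counts with SHH antibody, against 3, 2, 1 and 0 counts with no antibody, sums of 39 and 6. Its arms did not overlap either, at 0.635 ± 0.0633 and 0.132 ± 0.106 CPM.

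Because the copies can take each other's reads, their counts were also summed and fitted as 1 gene. The sum cannot bring back shared reads if the counting left them out. The sum stood at 7.27, 10.1, 9.41 and 8.26 CPM with SHH antibody, against 3.12, 4.21, 3.75 and 2.05 CPM with no antibody. All antibody libraries lay above all others, with means of 8.76 ± 1.25 and 3.28 ± 0.932 CPM and a log2 fold change of 1.46 ± 0.17 SE (2.75-fold). Within the sum, Sprr2a3 held 67.8% to 73.5% of counts in the antibody libraries and 57.5% to 86.7% in the others. The wider range with no antibody goes with sums of 30 to 42 counts there, against 113 to 159 counts with SHH antibody, and the split between the copies overlaps between the arms.

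Sprr2h had the largest fitted change of the 6 members in the fit. It stood at 5.21, 5.97, 5.79 and 4.77 CPM with SHH antibody, against 22.2, 19.2, 13.9 and 13.8 CPM with no antibody. All 4 antibody libraries lay far below the lowest library with no antibody. The means were 5.43 ± 0.551 and 17.3 ± 4.15 CPM, 3.17-fold lower with SHH antibody (log2 fold change -1.66 ± 0.14 SE). Replicate 1 with no antibody, the library that stands apart, had the highest value, and leaving out single libraries gave log2 fold changes of -1.77 to -1.51.

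Sprr2h and the Sprr2a genes thus changed places in their counts. For each count of the summed Sprr2a genes there were 0.717, 0.591, 0.615 and 0.577 counts of Sprr2h with SHH antibody, against 7.13, 4.57, 3.70 and 6.73 with no antibody. These ratios compare counts within a library and do not depend on its depth or scaling. They do depend on how reads shared by the Sprr2a copies were counted, which is not given. The change of order is therefore one of counts, and may not hold for the RNA. In every antibody library the summed Sprr2a genes had more counts than Sprr2h, and in every library with no antibody Sprr2h had more. With 97.1 kb between the starts of Sprr2a3 and Sprr2h, the genes with opposite directions lie on the same strand of the same cluster.

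**Figure D2:**
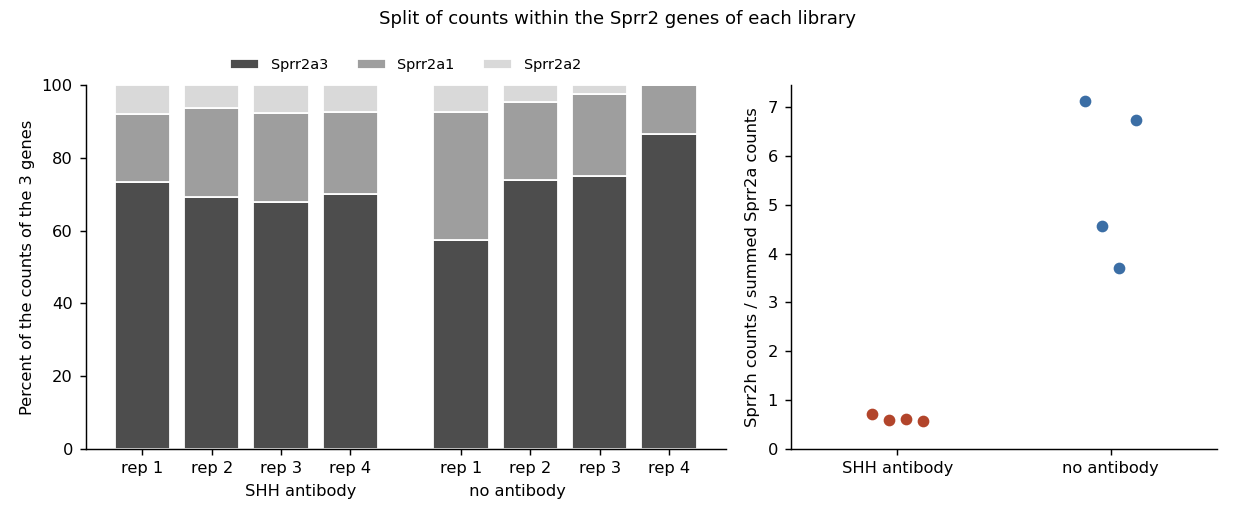
Left, percent of the summed counts of Sprr2a1, Sprr2a2 and Sprr2a3 that each gene took in each library; right, counts of Sprr2h divided by the summed Sprr2a counts, 1 point per library. Sprr2a3 took most of the counts in every library, and the ratio lay between 0.577 and 0.717 with SHH antibody and between 3.70 and 7.13 with no antibody.

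Sprr1a had 969.6, 1098, 1074 and 1046 CPM with SHH antibody, against 1179, 1225.5, 1202 and 971 CPM with no antibody. Replicates 1, 2 and 3 with no antibody were above every antibody library, while replicate 4 was within 1 CPM of the lowest of them. The means were 1047 ± 55.8 and 1144 ± 117 CPM (log2 fold change -0.13 ± 0.06 SE). Without replicate 4 of the arm with no antibody the log2 fold change of Sprr1a was -0.20 ± 0.05 SE, and without replicates 1 and 4 it was -0.22 ± 0.04 SE.

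Sprr1b, the nearest relative of Sprr1a, was close to the limit of detection. It had 12, 12, 10 and 3 counts with SHH antibody, against 9, 8, 9 and 2 counts with no antibody. Replicate 4 of each arm was the lowest. The means were 0.598 ± 0.27 and 0.621 ± 0.328 CPM, and the log2 fold change of 0.04 ± 0.45 SE changed sign between fits, to -0.36 ± 0.41 SE without replicate 4 of the arm with no antibody.

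Cdsn had 1.35, 0.826, 1.18 and 1.48 CPM with SHH antibody, against 2.88, 2.70, 3.18 and 3.08 CPM with no antibody. Every library with no antibody lay well above the highest antibody library. The means were 1.21 ± 0.282 and 2.96 ± 0.213 CPM, 2.45-fold lower with SHH antibody (log2 fold change -1.29 ± 0.21 SE), from 13 to 22 counts and from 27 to 45 counts per library. On chromosome 17 (Cdsn at chr17:35552128-35557180) the neighbouring gene Psors1c2 had 5 to 7 counts with SHH antibody and 3 to 7 with no antibody, and Cchcr1, the next gene on that side, had a log2 fold change of -0.004 ± 0.06 SE (edgeR quasi-likelihood test, adjusted p = 0.981).

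The rest of the SPRR cluster was nearly silent. From Sprr2a1 to the end of Sprr4 the cluster spans 284.7 kb and holds 16 Sprr genes in the table, of which 5 could be tested, all of them members. Sprr2d, Sprr2f, Sprr3 and Sprr4 were at 0 in all 8 libraries. Sprr2e had 1, 3, 2 and 1 counts with SHH antibody, against 7, 5, 3 and 6 counts with no antibody, in the direction of Sprr2h. At 0.113 ± 0.0601 and 0.435 ± 0.117 CPM it was too low for the test. Sprr2g had 4, 1, 6 and 3 counts with SHH antibody, against 15, 3, 1 and 0 with no antibody, where the library that stands apart holds most of its counts. Sprr2b, Sprr2i, Sprr2j-ps and Sprr2k had at most 5 counts in any library.

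The genes on either side of the cluster, whose products the SPRR proteins are cross-linked to, were not called. Ivl, which encodes involucrin, stood at 204.4 ± 10.3 CPM with SHH antibody and 186.9 ± 22.0 CPM with no antibody (log2 fold change 0.13 ± 0.07 SE, adjusted p = 0.254). It was called as higher in the fit without replicate 1 of the arm with no antibody. Lor, which encodes loricrin, stood at 4.20 ± 0.509 and 4.71 ± 1.04 CPM (adjusted p = 0.621). Gm9774, which lies between Sprr2j-ps and Sprr2k, had 77.2 ± 1.81 and 80.9 ± 5.11 CPM (adjusted p = 0.521).

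**Figure D3:**
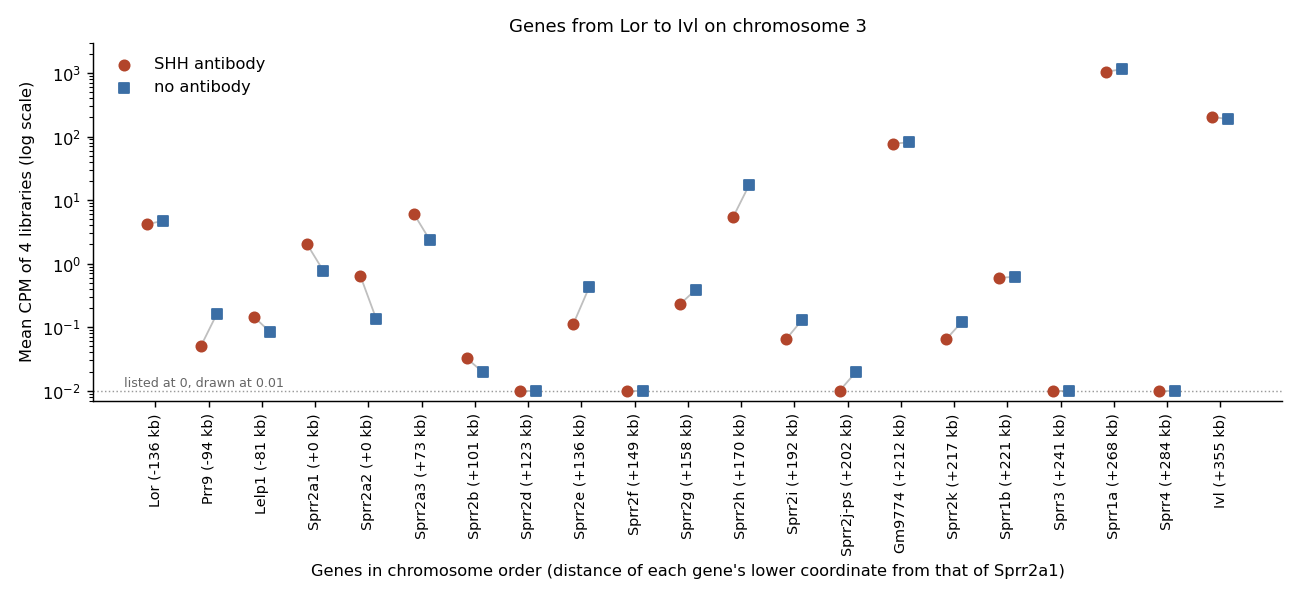
Mean CPM (log scale) of the 21 genes from Lor to Ivl on chromosome 3, in chromosome order, with SHH antibody (circles) and with no antibody (squares); genes listed at 0 are drawn at 0.01. The Sprr2a genes are higher and Sprr2h lower with SHH antibody, and Sprr1a, Gm9774 and Ivl stand far above the rest in both arms.

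Within the arms some members varied together and others did not. After the mean of each arm was removed, Sprr1a and Sprr2a1 had a Pearson correlation of 0.959 over the 8 libraries. Sprr2a3 and Sprr2h had 0.047, while Sprr2a1, with 4 to 39 counts per library, had 0.683 with Sprr2h and 0.515 with Sprr2a3. Cdsn was at or below -0.39 with each of the other 5 tested members. Over 9936 other genes whose mean reached 5 CPM, the nearest patterns to Sprr1a were those of Pla2g6 (0.978), Zfyve26 and Psmb2 (0.958 each). Ivl, the involucrin gene of the same chromosomal complex, was second nearest to Sprr2a1 (0.983), beside Atat1 (0.984) and Wdr45 (0.979). Sprr2a3 was nearest to Snx15 (0.981), Eps8l2 (0.979) and Tab1 (0.974), and Sprr2h to Atg16l1 (0.972), Cdc7 (0.968) and Qrsl1 (0.96). Adm2 (0.939) and Mttp (0.932) were among the 3 nearest to Cdsn. These correlations describe 8 libraries of differing depth, of which replicates 1 and 4 with no antibody lie farthest from their arm, and many genes are ranked, so no more is read from them.

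Outside the members, 15 of 60 tested genes of the envelope lists were called, 11 as higher and 4 as lower with SHH antibody (25.0%, against 8.40% of all genes tested). The lists were drawn up with earlier results of these data known, which included values of Dsp and Klf4, both among the 15. Nothing is therefore read from that share. The lists cover SPRR relatives, envelope precursors, cross-linkers and proteases, desmosomes, squamous keratins, barrier lipid enzymes and regulators, 150 genes in the table, of which most were too low to test. The median log2 fold change of the 60 was 0.04. In the fit without replicate 1 of the arm with no antibody 7 genes were called as lower, and without its replicates 1 and 4 there were 8. All adjusted p-values here are from edgeR's quasi-likelihood test with Benjamini-Hochberg adjustment over all genes tested.

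Of 6 envelope precursors tested, Ppl, the periplakin scaffold on which the envelope is built, was the called one, at 96.7 ± 4.34 CPM with SHH antibody and 82.0 ± 3.42 CPM with no antibody (log2 fold change 0.24 ± 0.05 SE, adjusted p = 0.00399). Anxa1, an annexin that is cross-linked into the envelope, had 421.4 ± 5.20 and 385.7 ± 8.18 CPM without overlap, but did not pass in edgeR (adjusted p = 0.072). DESeq2 called it as higher, as did the fits without replicate 1 and without replicates 1 and 4 of the arm with no antibody. Of 8 cross-linkers and proteases, the transglutaminase gene Tgm2 rose by 0.36 ± 0.08 SE on the log2 scale (adjusted p = 0.00546). Ctsl, a lysosomal cathepsin gene, fell (log2 fold change -0.23 ± 0.06 SE, adjusted p = 0.0174). Neither Tgm2 nor Ctsl was called on the RPKM values, and Ctsl was not past the threshold without replicate 1, 2 or 3 of the antibody arm. Without replicate 1 of the arm with no antibody, which stands apart and holds the highest Ctsl value, its log2 fold change was -0.15 ± 0.04 SE. Without replicates 1 and 4 of that arm the log2 fold change of Tgm2 was 0.19. Tgm1, the main transglutaminase of keratinocytes, stood at 0.259 ± 0.166 and 0.207 ± 0.183 CPM and was too low for the test. The most abundant members of that list without a call were Ctsd, Spint2 and Spint1.

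Of 9 desmosome genes tested 3 rose and 6 were not called, and the median log2 fold change of the 9 was 0.17. Dsc2 and Dsg2, the desmosomal cadherins of simple epithelia, rose by 0.45 ± 0.09 SE (adjusted p = 0.00322) and 0.41 ± 0.07 SE (adjusted p = 0.000322), and the plaque protein gene Dsp by 0.21 ± 0.05 SE (adjusted p = 0.0163). Dsp was not called on the RPKM values or without replicate 2 or 3 of the antibody arm, and its log2 fold change was 0.14 without replicates 1 and 4 of the arm with no antibody. Perp, Pkp4 and Jup were the most abundant that edgeR did not call. Perp was called as higher by DESeq2 and limma voom, and Jup with no filter on low counts. Each was also called as higher in some fit that left out libraries. Of 4 squamous keratins Krt13, a keratin of internal stratified epithelia, rose, at 4.61 ± 0.536 CPM with SHH antibody and 2.41 ± 0.781 CPM with no antibody (log2 fold change 0.94 ± 0.19 SE, adjusted p = 0.00222), while Krt23, Krt80 and Krt10 were not called. Krt23 was lower with SHH antibody without overlap, at 161.8 ± 0.978 CPM against 171.4 ± 0.880 CPM (log2 fold change -0.08 ± 0.04 SE, adjusted p = 0.264). Of 8 barrier lipid enzymes 0 were called by edgeR, DESeq2 or limma voom, and 1, Sptlc1, had an unadjusted edgeR p under 0.05. The most abundant of them were Ugcg and Sptlc2.

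Of 25 regulators of envelope genes 5 rose and 3 fell. Grhl3, a grainyhead factor of the epidermal barrier (log2 fold change 0.93 ± 0.22 SE, adjusted p = 0.00827), Pou2f3, an octamer-binding factor (0.81 ± 0.22 SE, adjusted p = 0.0201), and Elf3, an epithelial ETS factor that binds SPRR promoters (0.57 ± 0.06 SE, adjusted p = 2.81e-06), rose most. Klf4, a factor of epidermal differentiation, rose less (0.30 ± 0.05 SE, adjusted p = 0.000957). The AP-1 subunit genes Fosl1 (-0.31 ± 0.06 SE, adjusted p = 0.00128) and Fosl2 (-0.23 ± 0.05 SE, adjusted p = 0.00351) fell, as did Cebpb (-0.34 ± 0.07 SE, adjusted p = 0.00227). Junb (-0.22, adjusted p = 0.0518), Nfe2l2 and Jund were the most abundant that edgeR did not call. Junb was called as lower by DESeq2, by limma voom, with the replicate block, with upper quartile scaling and with no filter on low counts. It was also called as lower in some fits that left out libraries, and Jund without replicates 1 and 4 of the arm with no antibody. Pou2f3 was not past the threshold without replicate 2 of either arm or without replicates 1 and 4 of the arm with no antibody.

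**Figure D4:**
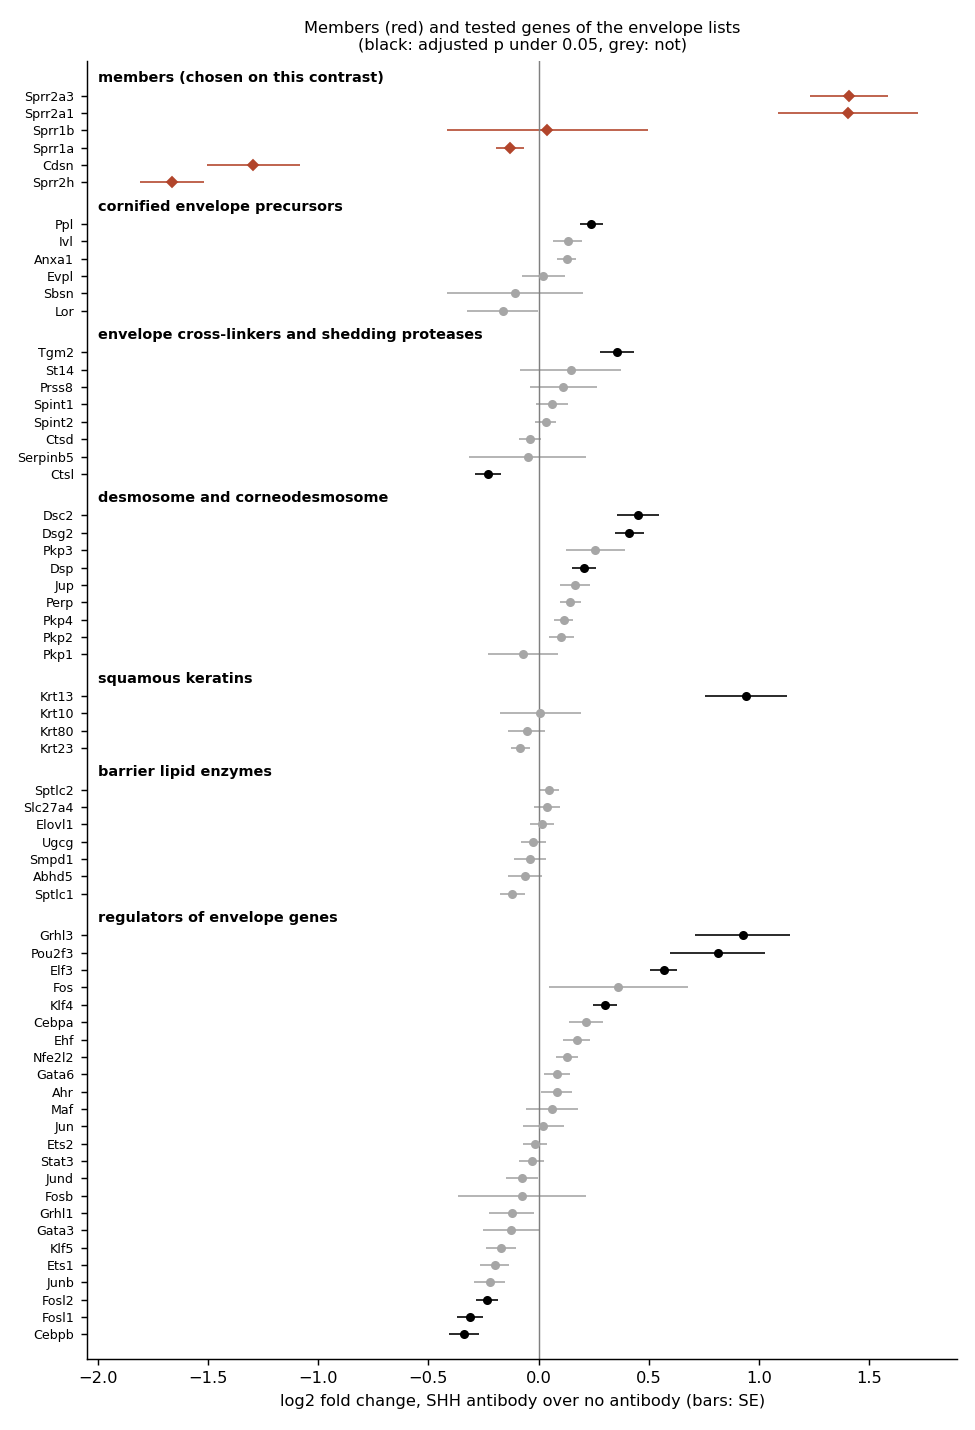
Log2 fold change, SHH antibody over no antibody, with its SE, of the 6 tested members (red diamonds) and of 58 of the 60 tested genes of the envelope lists (circles; black where called at adjusted p under 0.05, grey where not). The 4 members past the threshold lie at 1.29 or more in size, and the called list genes lie between -0.34 and 0.94. Since the members were chosen on this contrast, nothing is read from their larger size.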

How the data were processed

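PolyA RNA of 8 libraries, 4 per arm, was measured by strand-specific paired sequencing, per the labels' protocols. Per the submitters' processing notes, reads were called with CASAVA 1.8.2 and aligned with TopHat2 2.0.9 to GRCm38; no source used here gives the counting tool, annotation or strand setting. The authors deposited raw counts per Ensembl gene and RPKM values, which divide those counts by gene length and library total. The main test was the quasi-likelihood F test of edgeR 4.0.16 (R 4.3.3), with TMM factors and no term but the arm. It was run on the 13626 genes kept by filterByExpr, p-values were adjusted by Benjamini-Hochberg and called under 0.05, and the procedure was tested on simulated data. Fold changes are SHH antibody over no antibody, and the SE comes from the F statistic. CPM values use the TMM factors; 3 counts correspond to 0.191 to 0.30 CPM, for counting error only. Correlations used log2 CPM (prior count 2).

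The members and lists were chosen with earlier results of these data known, which already included values of Dsp and Klf4, and give no independent support. Named are the 7 members, every called gene of the lists and up to 3 abundant uncalled genes of each, the 3 nearest patterns (mean of at least 5 CPM) of each member of at least 1 CPM (predicted genes left out), and neighbours on the chromosome; single list genes too low to test (Tgm1, Sprr2e, Sprr2g) and Sptlc1 were taken up after their values were seen. A few genes that this rule takes, and part of the genotype, are not reported here. Alternatives were other scalings and filters, a replicate block, DESeq2 1.42.0, limma 3.58.1 (voom, and RPKM with a pseudocount of 1 or 0.1), and leaving out libraries. Promoters were matched by symbol in the RefSeq table for all 7 members.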

Additional observations from a re-analysis of the deposited data

How the results depend on the processing

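The direction of Sprr2a1, Sprr2a3, Sprr2h, Cdsn and Sprr1a was kept in all 18 alternative fits, and that of the summed Sprr2a genes in its 14; Sprr1b changed sign (-0.45 to 0.32). On log2(RPKM + 1), which understates changes of low genes, the log2 fold change was -0.54 for Cdsn and 0.36 for Sprr2a1. Without replicates 1 and 4 with no antibody it was 1.05 for Sprr2a3, and the calls over all genes were 1121 higher and 1142 lower, against 617 and 527. On log2(RPKM + 1) they were 386 and 289 and on log2(RPKM + 0.1) 380 and 290. Leaving out single libraries gave 369 to 756 higher and 305 to 729 lower, lowest for higher calls without replicate 3 (369) and for lower calls without replicate 2 (305) of the antibody arm. Among the envelope lists 11 genes were higher and 4 lower; the lower count was 7 with no filter on low counts, 8 without replicates 1 and 4 with no antibody, and 3 to 7 without single libraries. The cause of these moves was not tested. Of the 15 called list genes 11 were called in every alternative, and Ctsl, Dsp, Pou2f3 and Tgm2 lost the call in some. Samples of the same number did not deviate together (correlations of -0.029 to 0.007), so no pairing by number was seen. This check cannot exclude that cultures of the same number were set up together. With the replicate block the log2 fold changes were -1.66 for Sprr2h, 1.39 for Sprr2a3, 1.37 for Sprr2a1, 1.44 for the sum, -1.28 for Cdsn and -0.12 for Sprr1a, and 11 list genes were higher and 5 lower. Low counts limit Sprr1b, Sprr2a2 and Sprr2e.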

Other observations

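One library with no antibody, replicate 4, held the lowest CPM of its arm in all 6 Sprr genes of the set. For Sprr2a3 (1.79 CPM in replicate 1) and Sprr2h (13.9 CPM in replicate 3) it did so by near ties. The Sprr2a copies among the 6 share sequence. The share of all genes that were lowest in this library was not counted, so nothing is read from the 6. On the authors' RPKM values Sprr2a3 was lowest in replicate 1 instead, at 2.59 RPKM against 2.61 RPKM in replicate 4. It had 971 CPM of Sprr1a, 0.137 CPM of Sprr1b, 0.274 CPM of Sprr2a1, 1.78 CPM of Sprr2a3 and 13.8 CPM of Sprr2h, and no count of Sprr2a2. Its Cdsn value of 3.08 CPM was the second highest of the arm. Its total of 14602784 counts was the largest of that arm. In this library Sprr2a2, Sprr1b and Sprr2a1 had 0, 2 and 4 counts. The cause of its low values was not tested.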
